A study of Mus musculus with 13 samples.

Results

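The 10 genes described here belong to neutrophil granules and to calprotectin, and they were followed across sorted mouse blood stem and progenitor cells. They are S100a8, S100a9, Ltf, Camp, Ngp, Lcn2, Chil3, Chil4, Retnlg and Mmp8, taken by their gene symbol from the platform annotation. They had 14 probes on the array, and all 10 genes were among the 12807 genes and unnamed probes that could be tested, out of 29453 in the table. Their measured values played no part in finding these 14 probes by symbol. They did decide which probe was used, the one with the highest mean signal per gene, and testing required detection on at least 2 arrays. The genes themselves were listed with earlier results of these arrays known.

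RNA was measured on 13 Illumina bead arrays, 1 for each combination of genotype and cell population, in mice of the C57BL/6 background. Control mice were c-Cbl +/+. Mutant mice were c-Cbl A/-, with 1 allele written A over a null allele and with no further definition of A in the labels, or c-Cbl -/-. c-Cbl is a ubiquitin ligase that takes activated receptor kinases and cytokine signals out of action. All cells were sorted as lineage-negative and c-Kit+. The 3 Sca1+ populations, together called LSK, were LTHSC (CD34-Flt3-, the long-term stem cell gate), STHSC (CD34+Flt3-) and MPP (CD34+Flt3+, multipotent progenitors). The 3 Sca1- populations were CMP (CD34+CD16/32-, common myeloid progenitors), GMP (CD34+CD16/32+, granulocyte-monocyte progenitors) and MEP (CD34-CD16/32-, megakaryocyte-erythroid progenitors). Each was measured in +/+ and A/- cells, and LTHSC also in -/- cells. The labels do not say how many animals gave each sample, nor whether animals were pooled, so p-values here measure only how far the genotype differences of the populations spread.

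Neutrophils fill their granules in steps as they mature in the marrow. Primary granules, with myeloperoxidase and serine proteases, form at the promyelocyte stage, and the secondary and tertiary granules, with lactoferrin, cathelicidin, lipocalin 2, collagenase and related proteins, form later, at the myelocyte and metamyelocyte stages. S100a8 and S100a9 proteins pair to form calprotectin, a calcium- and metal-binding complex that is among the most abundant proteins of the neutrophil cytosol. The switch to late granule genes depends on the transcription factor C/EBPε, with PU.1 and GFI1 as other regulators of the granulocyte lineage. In the standard scheme these genes mark maturing neutrophils rather than stem cells or erythroid progenitors.

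The genes lie on chromosomes 2, 3, 9 and 16 in the RefSeq annotation of mouse assembly GRCm38.p6. S100a8 and S100a9 are direct neighbours on chromosome 3, with 0 protein-coding genes between them, and so are Chil3 and Chil4. Camp and Ngp are separated by 8 protein-coding genes on chromosome 9. Cbl lies on chromosome 9 too, and at least 370 protein-coding genes separate it from the nearest of the 10 genes. Promoters are shown for 6 of the 8 genes whose window held a C/EBP-type or a PU.1-type match, so that these letters can be seen in place, and this choice was made with the matches and the values known. They run from 250 bases before to 50 bases after the annotated start, 5′ to 3′ on the gene's strand, from RefSeq on GRCm38.p6. Capitals mark every match to TTGCNNAA (C/EBP-type), GAGGAAGT (PU.1-type) or TATAAA on either strand. The S100a8 promoter is chr3:90668821-90669120 (plus strand), S100a9 chr3:90695672-90695971 (minus), Ltf chr9:111019042-111019341 (plus), Ngp chr9:110419558-110419857 (plus), Lcn2 chr2:32387690-32387989 (minus) and Chil4 chr3:106219430-106219729 (minus).
S100a8: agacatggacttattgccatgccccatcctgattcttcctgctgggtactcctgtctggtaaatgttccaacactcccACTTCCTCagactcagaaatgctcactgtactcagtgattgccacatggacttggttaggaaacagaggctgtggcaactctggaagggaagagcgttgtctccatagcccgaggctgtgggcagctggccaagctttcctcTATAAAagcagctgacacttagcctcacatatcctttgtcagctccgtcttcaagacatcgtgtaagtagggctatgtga
S100a9: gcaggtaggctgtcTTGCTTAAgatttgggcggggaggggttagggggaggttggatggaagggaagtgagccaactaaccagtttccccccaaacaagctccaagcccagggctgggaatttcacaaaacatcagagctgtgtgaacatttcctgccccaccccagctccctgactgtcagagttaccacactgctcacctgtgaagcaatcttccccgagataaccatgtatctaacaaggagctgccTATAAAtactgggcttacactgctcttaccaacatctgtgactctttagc
Ltf: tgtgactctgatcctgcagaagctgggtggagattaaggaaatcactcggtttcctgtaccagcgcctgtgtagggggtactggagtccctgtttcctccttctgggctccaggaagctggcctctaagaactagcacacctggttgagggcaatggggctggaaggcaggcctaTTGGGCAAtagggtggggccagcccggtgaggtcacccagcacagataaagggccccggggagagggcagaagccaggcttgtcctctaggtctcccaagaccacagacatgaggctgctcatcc
Ngp: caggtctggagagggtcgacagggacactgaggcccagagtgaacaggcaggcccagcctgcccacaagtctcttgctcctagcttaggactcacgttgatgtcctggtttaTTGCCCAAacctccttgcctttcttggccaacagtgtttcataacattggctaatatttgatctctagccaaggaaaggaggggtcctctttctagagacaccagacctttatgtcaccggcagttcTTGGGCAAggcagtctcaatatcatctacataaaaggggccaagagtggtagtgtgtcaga
Lcn2: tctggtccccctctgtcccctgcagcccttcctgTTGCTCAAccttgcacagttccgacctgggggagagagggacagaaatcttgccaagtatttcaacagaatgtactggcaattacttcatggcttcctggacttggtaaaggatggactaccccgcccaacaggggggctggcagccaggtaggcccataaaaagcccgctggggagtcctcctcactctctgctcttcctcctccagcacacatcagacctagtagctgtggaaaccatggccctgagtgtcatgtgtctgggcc
Chil4: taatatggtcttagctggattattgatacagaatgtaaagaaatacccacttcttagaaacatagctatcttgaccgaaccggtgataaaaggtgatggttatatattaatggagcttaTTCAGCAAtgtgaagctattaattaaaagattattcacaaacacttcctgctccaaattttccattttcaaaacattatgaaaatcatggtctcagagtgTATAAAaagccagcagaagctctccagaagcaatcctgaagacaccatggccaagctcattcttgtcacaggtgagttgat

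The C/EBP-type letters were found in 7 of the 10 promoters, against 10.8% of all 32851 promoters in the table. These 7 were S100a9, Ltf, Ngp, Lcn2, Chil4, Retnlg and Mmp8, and Ngp held the letters at 2 places, starting 138 and 11 bases before the start. The PU.1-type letters were in 2 of 10, S100a8 and Mmp8, against 3.2% of all promoters. TATAAA was in 5 of 10, against 13.6%, and it began 30 bases before the start in S100a8 and 31 before it in Chil4. In S100a9 it began at the start itself, and in Chil3 and, on the other strand, Mmp8 3 bases before it. The Camp promoter held none of the 3 motifs in this window. Such matches describe letters in a window and are not measured binding sites.

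Signals below are log2 values after background correction and quantile normalization of all 13 arrays. A probe was called detected on an array when its deposited detection p-value, from negative control probes, was below 0.01. A difference of 1 on this scale is a 2-fold difference. Signals of different probes cannot be ranked against each other, so each gene is compared only with itself. The number of arrays, 1 per genotype and population, limits the precision. In pools of sorted cells, fewer cells of a type and less RNA per cell cannot be told apart.

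The arrays differed in scale before normalization. The 3 LTHSC arrays had raw medians of 51.7 to 52.9 and brightest probes between 24708 and 26347, while the other 10 had medians of 148.3 to 191.04 and brightest probes between 53680 and 62624. The LTHSC arrays were thus a set of their own in raw scale, and the tests that use them are also given without them. Cbl was detected on 0 of the 13 arrays, with signals of 4.49 to 5.33 in all genotypes, so this probe gives no check of the genotype labels. Of the other genes behind the sort, Kit was detected on 13 arrays and Cd34 on 12. Cd34 was at 10.01 in +/+ and 10.14 in A/- LTHSC, a CD34- gate, above the 9.20 and 9.08 of STHSC, a CD34+ gate. In MEP, the other CD34- gate, it was at 6.99 and 6.26. Flt3 was detected on 0, including the Flt3+ MPP, and Fcgr3, a CD16 gene, was highest in +/+ GMP at 12.19.

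S100a8, the smaller subunit of calprotectin, was bright in all stem cell gates of both genotypes. In +/+ cells its signal was 15.39, 15.39 and 15.16 in LTHSC, STHSC and MPP, and 12.44, 15.24 and 15.40 in CMP, GMP and MEP. In A/- cells it was 15.42, 15.25 and 15.28 in LTHSC, STHSC and MPP, but 8.37, 11.22 and 9.89 in CMP, GMP and MEP. The -/- LTHSC had 15.10. All 3 A/- committed progenitor arrays thus lay below every other array, the lowest of which was +/+ CMP. The genotype difference was -4.07, -4.01 and -5.51 in the committed pairs, in the same order, while in the LSK pairs it was 0.03, -0.14 and 0.12.

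S100a9, its partner, was arranged in the same way. In +/+ cells the signal was 14.77, 15.07 and 15.29 in LTHSC, STHSC and MPP, and 10.24, 13.92 and 14.72 in CMP, GMP and MEP. In A/- cells it was 14.95, 14.54 and 14.54 in the 3 LSK populations and 6.82, 9.40 and 8.77 in the 3 committed ones. The -/- LTHSC had 14.42. The A/- committed arrays again lay below all other arrays, and both genotypes had their lowest value in CMP.

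**Figure D1:**
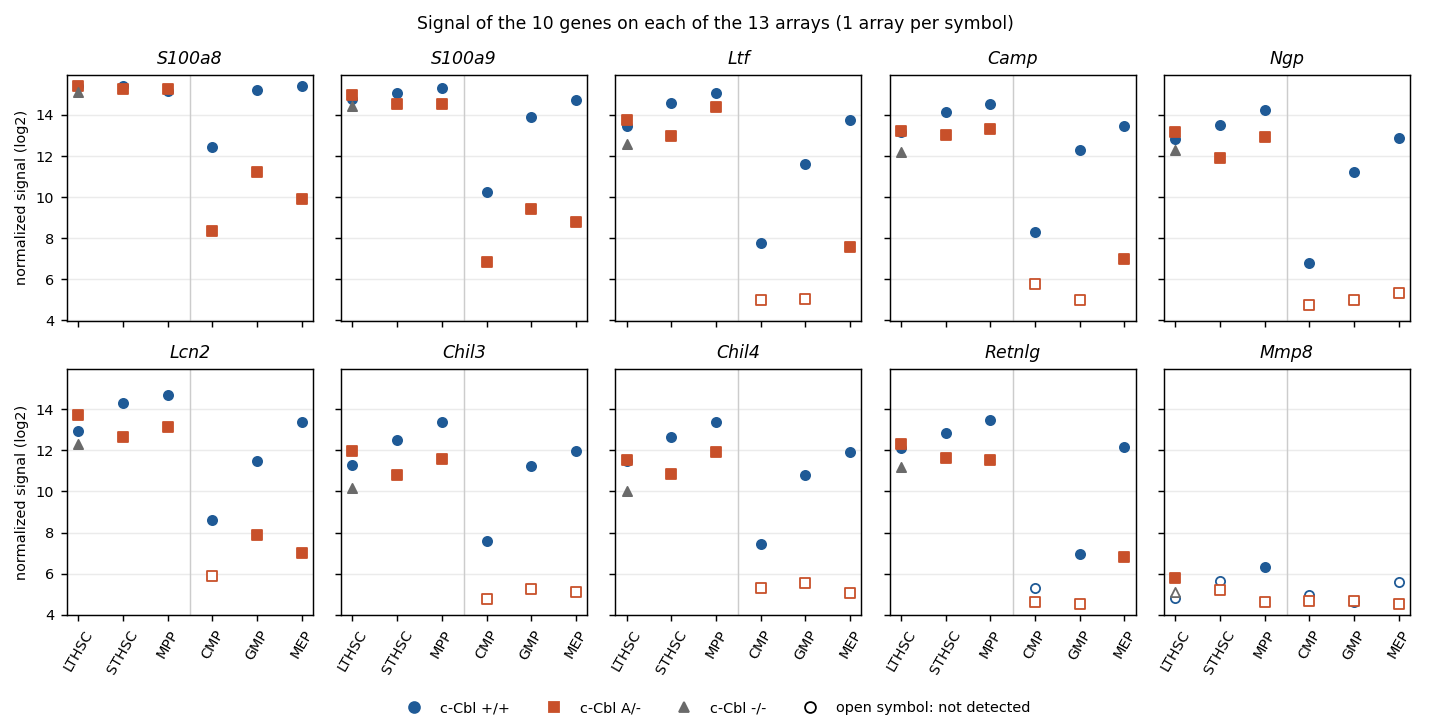
Normalized log2 signal (vertical axis) of each of the 10 genes in the 6 populations (horizontal axis), 1 symbol per array, blue circles for +/+, orange squares for A/- and grey triangles for -/-, with open symbols where the probe was not detected. In 9 of the 10 panels the 3 A/- committed progenitors sit below all 7 LSK arrays (8.43% of all features do so), and in 8 also below all 3 +/+ committed progenitors.

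The secondary granule genes had a wider range. Ltf, lactoferrin, an iron-binding protein, had +/+ signals of 13.48, 14.57 and 15.07 in LTHSC, STHSC and MPP, and 7.77, 11.59 and 13.73 in CMP, GMP and MEP. The A/- signals were 13.78, 12.96 and 14.36 in LTHSC, STHSC and MPP, and 4.98, 5.04 and 7.57 in CMP, GMP and MEP, with CMP and GMP not detected. The -/- LTHSC had 12.58. In the GMP pair the lowering was at least 48.6-fold. Such a bound is used wherever the dimmer array did not detect the probe, and it sets the dimmer array at its lowest detected signal or at the probe's own signal, whichever is higher.

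Camp, the mouse cathelicidin, an antimicrobial peptide precursor, gave +/+ signals of 13.16, 14.16 and 14.53 in LTHSC, STHSC and MPP and 8.32, 12.29 and 13.46 in CMP, GMP and MEP. The A/- signals were 13.22, 13.03 and 13.32 in the LSK populations, and 5.75, 5.0 and 6.97 in CMP, GMP and MEP, with CMP and GMP not detected. In -/- LTHSC it gave 12.19. The difference in GMP was at least 79.2-fold, and that in MEP, measured on both sides, was 89.5-fold. Ngp, neutrophilic granule protein, was detected in all 3 +/+ committed progenitors, at 6.78, 11.20 and 12.86 in CMP, GMP and MEP, and in 0 of the 3 A/- ones, at 4.76, 4.97 and 5.35. Its LSK signals were 12.81, 13.49 and 14.25 in +/+ and 13.19, 11.92 and 12.91 in A/- LTHSC, STHSC and MPP, with 12.28 in -/- LTHSC. The lowering of Ngp was at least 37.1-fold in GMP and at least 90.4-fold in MEP.

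Lcn2, lipocalin 2, which binds bacterial siderophores, was the only gene besides the calprotectin pair that was detected in A/- GMP. Its +/+ signals were 12.94, 14.32 and 14.70 in LTHSC, STHSC and MPP and 8.63, 11.47 and 13.39 in CMP, GMP and MEP. Its A/- signals were 13.73, 12.66 and 13.15 in the LSK populations, 5.87 in CMP (not detected), 7.86 in GMP and 7.0 in MEP. In -/- LTHSC the signal was 12.30. The GMP and MEP pairs, detected on both sides, were 12.2-fold and 83.5-fold lower in A/- cells.

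Chil3 and Chil4 encode chitinase-like proteins of myeloid cells that do not cleave chitin. Chil3 had +/+ signals of 7.60, 11.24 and 11.99 in CMP, GMP and MEP, and A/- signals of 4.75, 5.23 and 5.09, detected on 0 of these 3 arrays. Chil4 had 7.42, 10.79 and 11.94 in the +/+ and 5.32, 5.52 and 5.08 in the A/- arrays, again with 0 of 3 detected. All LSK arrays detected both. In LTHSC, STHSC and MPP, Chil3 was at 11.31, 12.53 and 13.36 in +/+ and at 11.96, 10.82 and 11.58 in A/- cells. Chil4 was at 11.47, 12.67 and 13.38 in +/+ and at 11.53, 10.83 and 11.91 in A/- cells. The lowest LSK value of both genes was that of -/- LTHSC, 10.18 and 10.04, and the highest that of +/+ MPP. The 2 genes are close paralogs, and their signals had a Pearson correlation of 0.996 over the 13 arrays. Whether the probes read each other's transcripts was not tested, and the 2 are not taken as independent measurements.

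Retnlg, which encodes a resistin-like secreted protein of neutrophils, differed from the others in GMP. In +/+ cells it was 12.14, 12.85 and 13.47 in LTHSC, STHSC and MPP, 5.28 in CMP (not detected), 6.97 in GMP and 12.16 in MEP. In A/- cells it was 12.29, 11.64 and 11.53 in the LSK populations, 4.63 in CMP and 4.54 in GMP, both not detected, and 6.80 in MEP. In -/- LTHSC it was 11.21. The +/+ and A/- committed arrays overlapped for this gene, since +/+ CMP lay below A/- MEP. The +/+ MEP signal exceeded the +/+ GMP signal by 5.19, against 0.16 to 2.14 for the 8 genes described above. Mmp8, neutrophil collagenase, was detected on only 2 arrays, A/- LTHSC at 5.78 and +/+ MPP at 6.33. The other 11 arrays lay between 4.53 and 5.64, so Mmp8 gave almost no readable difference.

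The order of the +/+ populations was shared by most members. The highest +/+ signal was in MPP for 9 of 10 genes, the exception being S100a8, which was highest in MEP. The lowest was in CMP for 9 of 10, the exception being Mmp8. All 10 genes were higher in +/+ MEP than in +/+ GMP, though Mmp8 was not detected on either of these arrays. The share of all features with the same orders was not counted. With 1 array each, the differences between neighbouring populations in these orders have no replicate error. The test of the LSK against the committed populations took both genotypes together, with genotype as a covariate. It called 9 of 10 genes lower in committed cells (limma, Benjamini-Hochberg adjusted p from 1.13e-04 for Retnlg to 0.0077 for S100a8). Of all features, 23.6% were called lower in that comparison. The log2 differences, averaged over +/+ and A/- cells, ran from -3.22 (SE 0.76) for S100a8 to -5.59 (SE 0.58) for Retnlg. By genotype, mean S100a8 signals in LSK and committed cells were 15.31 and 14.36 in +/+, and 15.32 and 9.83 in A/-. Those of S100a9 were 15.04 and 12.96 in +/+, and 14.68 and 8.33 in A/-. Those of Retnlg were 12.82 and 8.14 in +/+, and 11.82 and 5.32 in A/-. The level difference within +/+ cells alone was not tested. Mmp8 differed by -0.56 with an adjusted p of 0.163. Without the LTHSC pair the same count of 9 was called, with adjusted p-values (limma) of 3.95e-04 for Retnlg to 0.0160 for S100a8. That fit called 2581 of all 12807 features lower. Between GMP and CMP no member was called at an adjusted p below 0.05 by limma, where S100a9 was 3.13 higher in GMP (SE 1.29, adjusted p 0.698). Of all features, 0% were called there, and 845 had an unadjusted p below 0.05, with S100a9 the only member among them.

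The genotype comparison asked whether mutant cells carried the same granule gene signal as control cells of the same gate. In committed progenitors, 7 of the 10 genes fell in A/- cells, against 0.336% of all features called lower. The fit took the 12 +/+ and A/- arrays, with the population as a block and 1 genotype effect each for the 3 committed and the 3 LSK pairs. S100a8 fell by 4.53 on the log2 scale (SE 0.25, limma adjusted p 7.26e-04), the smallest p of all 12807 features, and S100a9 fell by 4.63 (SE 0.39, adjusted p 0.0107), the second smallest. Ltf fell by 5.17 (SE 0.65) and Camp by 5.45 (SE 0.75), both with a limma adjusted p of 0.0375. Lcn2 fell by 4.25 (SE 0.67, limma adjusted p 0.0447). Of the 3 A/- committed arrays only 1 detected Ltf, 1 Camp and 2 Lcn2, and the others entered these fitted differences at their normalized signal near background. Chil3 and Chil4, not detected in any A/- committed array, fell by at least 17.9-fold and at least 15.3-fold (limma adjusted p 0.0375 and 0.0447).

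The other members did not pass. Ngp, at least 17.9-fold lower in A/- committed arrays and lower in 3 of 3 pairs, had a limma adjusted p of 0.0502. Retnlg differed by -2.81 (SE 0.75, adjusted p 0.127) and Mmp8 by -0.42 (SE 0.46, adjusted p 0.667). For 8 of the 10 genes all 3 A/- committed arrays lay below all 3 +/+ ones, which held for 5.58% of all features. The median over the 10 genes was -4.69, against 0.01 over all features.

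The number of genes that passed depended on the fit. Leaving out the GMP pair left 1 called gene, S100a8, and so did leaving out the STHSC pair. Leaving out the MPP or the MEP pair left 2, S100a8 and S100a9, while leaving out the CMP pair left 7 and the LTHSC pair 8. The number of all features called moved as well, between 1 and 209 over these fits, against 61 in the main fit. Whether the member counts only follow that number was not tested. A fit of the 3 committed pairs alone called 4 of 10, S100a8, S100a9, Ltf and Chil3. S100a8 and S100a9 kept log2 differences of -4.79 to -4.04 and -5.24 to -3.97 when single pairs were left out.

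In the LSK populations no member was called (limma), and 0% of all features were. Among all features 898 had an unadjusted p below 0.05, and 0 of them were members. S100a8 differed by 0.00 (SE 0.25) and S100a9 by -0.37 (SE 0.39). The 3 pairs went different ways for most genes. In LTHSC all 10 genes were higher in A/- than in +/+ cells, by 0.03 for S100a8 to 0.79 for Lcn2 among the genes detected in both. In STHSC all 10 were lower, 7 of them 2-fold or more in normalized signal, against 3.05% of all features. In MPP 9 were lower, 7 of them 2-fold or more in normalized signal, against 4.92%. With an undetected dimmer array at its bound, 6 were at least 2-fold lower in MPP, against 4.31%, and Mmp8 was not among them. The +/+ and A/- LSK arrays overlapped for all 10 genes. Without the LTHSC pair, again no member was called (limma), while 81 of all 12807 features were, 64 of them lower. The LSK differences in that fit were -0.0103 (SE 0.33) for S100a8, -0.64 (SE 0.48) for S100a9 and from -1.08 for Mmp8 to -1.75 for Chil3 for the other 8. Lcn2, for example, was at -1.61 (SE 0.71) without that pair and -0.81 with it.

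Whether the genotype difference itself differed between committed and LSK cells was tested as a contrast in the same fit. It passed for S100a8, at -4.53 (SE 0.36, limma adjusted p 0.0119), the single feature called of all those tested (0.00781%). S100a9 followed with the second smallest p, at -4.27 (SE 0.55), but with an adjusted p of 0.293. The other 8 had adjusted p-values of 0.573 to 0.995, with differences between -4.69 for Camp and -0.03 for Mmp8. For S100a8 the call ended without the STHSC pair (adjusted p 0.142) and without the MPP pair (0.226). Without the LTHSC pair the S100a8 contrast was -4.52 (SE 0.42, limma adjusted p 0.0406), and that of S100a9 -3.99 (SE 0.62, adjusted p 0.401). Without the CMP pair 5 members were called, and without the MEP pair 2. Over the fits without 1 pair, 0 to 5 of all features were called.

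Over all 6 pairs together no member passed (limma adjusted p of 0.146 to 0.534), against 0.429% of all features called lower, although 9 of 10 had an unadjusted p below 0.05, as did 1993 of all 12807 features. Over the 5 pairs outside LTHSC 3 members fell, against 2.48% of all features (limma). These were Lcn2, at -3.19 (SE 0.61, adjusted p 0.0287), Chil3, at -3.85 (SE 0.75, adjusted p 0.0304), and Chil4, at -3.51 (SE 0.74, adjusted p 0.0417). All 10 members had an unadjusted p below 0.05 there, as did 2826 of the 12807 features, and the adjusted p of Ltf was 0.0526.

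**Figure D2:**
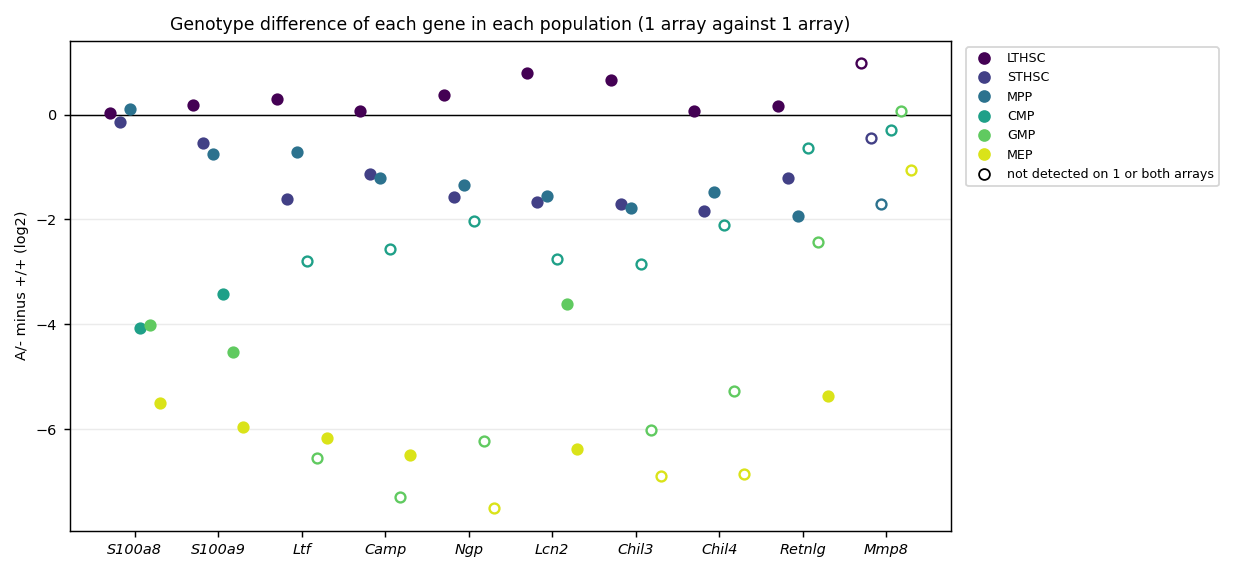
Log2 difference between the A/- and the +/+ array (vertical axis) of each gene (horizontal axis) in the 6 populations, 1 point per pair, with open points where the probe was not detected on 1 or both arrays. The LTHSC points lie above 0 for all 10 genes, and the MEP points lie between -5.36 and -7.51 for 9 of them.

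The size of the genotype difference was not the same in all pairs, none of which has a replicate. The median over the 10 genes was 0.24, -1.40 and -1.41 in LTHSC, STHSC and MPP, and -2.66, -4.89 and -6.27 in CMP, GMP and MEP. The medians of all features lay between -0.0041 and 0.04. Lower by 2-fold or more in normalized signal, with undetected dimmer arrays at their own signal, were 0 of 10 genes in LTHSC (1.53% of all features), 8 in CMP (1.77%), 9 in GMP (4.11%) and 9 in MEP (4.35%). With those arrays at their bound, at least 2-fold lower were 7 in CMP (1.22%), all but Ngp, Retnlg and Mmp8, then 8 in GMP (2.87%), all but Retnlg and Mmp8, and still 9 in MEP. In CMP the +/+ level was already low, so that 6 of the 8 differences there have only a bound, from at least 1.72-fold for Ngp to at least 6.19-fold for Lcn2.

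The -/- LTHSC array was compared with both other LTHSC arrays, which means that these comparisons share arrays with each other and with the A/- LTHSC pair. Against +/+ LTHSC, 2 of 10 genes were at least 2-fold lower (2.26% of all features), Chil3 (-1.13) and Chil4 (-1.44 on the log2 scale), and the median was -0.77. Against A/- LTHSC, 6 of 10 were at least 2-fold lower (2.74%), with a median of -1.06. The 9 members other than Mmp8 were lowest in the -/- array of the 3. There was 1 array per genotype, so no test was possible.

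Bright probes can approach the scanner's ceiling, where differences are compressed, so the raw signal was set against the brightest probe of each array. S100a8 reached 75.01% to 87.7% of it in the LSK arrays of +/+ and A/- cells and 83.5% and 86.6% in +/+ GMP and MEP. S100a9 reached at most 81.8% and Ltf at most 73.3%, both in +/+ MPP. The other 7 genes stayed at or below 57.9%, the value of Lcn2 in +/+ MPP. In A/- GMP and MEP, S100a8 was at 4.21% and 1.59% of the brightest probe. The small spread of S100a8 among LSK pairs, on which its p-value partly rests, was therefore measured near the top of each array's own range. Whether the ceiling hid differences there was not tested. The brightest probes of the LTHSC arrays lay between 24708 and 26347, against up to 62624 on the others. Nearness to the scanner's ceiling is therefore not shown for the LTHSC arrays. Fitted on the 3 committed pairs alone, S100a8 had an adjusted p of 0.0106 (limma).

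**Figure D3:**
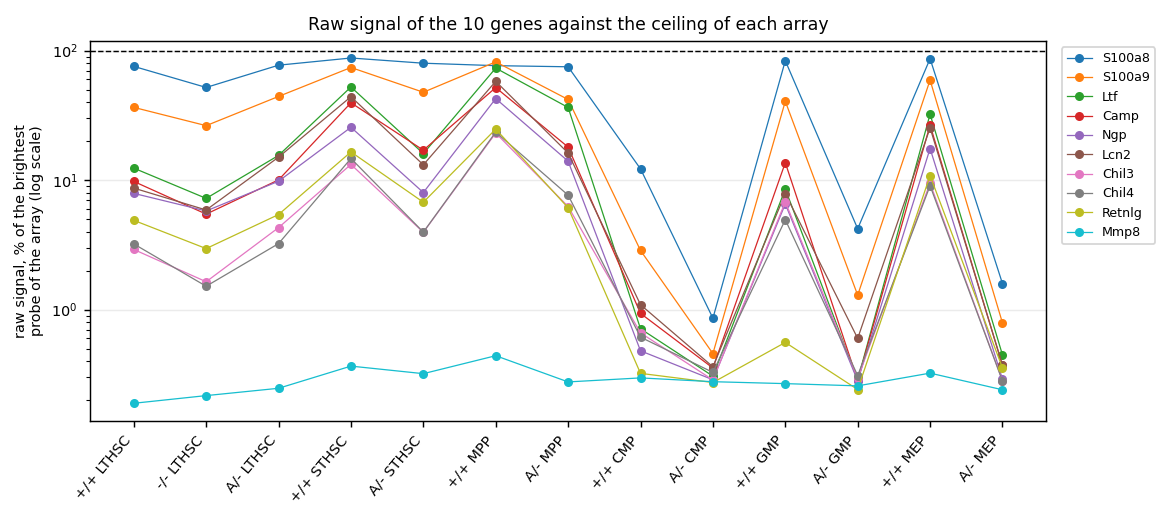
Raw signal of the 10 genes as a percentage of the brightest probe of the same array (vertical axis, log scale) on each of the 13 arrays (horizontal axis), with lines joining the points of 1 gene and a dashed line at the brightest probe. S100a8 lies above 50% on all LSK arrays and on +/+ GMP and MEP, and Mmp8 stays below 0.5% throughout.

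Genes with more than 1 probe allowed the measurement to be repeated on the same RNA. Ltf had a second, dimmer probe that was detected on 9 arrays and had a correlation of 0.933 with the first over the 13 arrays. Its difference in A/- committed progenitors was -1.96 (SE 0.71, limma adjusted p 0.200 over all 18652 probes), against -5.17 for the brighter probe. In +/+ CMP and in all 3 A/- committed arrays it was not detected. Chil3 had 3 probes, and the other 2 had correlations of 0.993 and 0.976 with the one used. Their differences in A/- committed cells were -4.82 (SE 0.67, limma adjusted p 0.0291) and -3.27 (SE 0.84, adjusted p 0.112). The second Chil4 probe was detected on 0 of 13 arrays, between 4.42 and 4.83. It thus did not repeat the signal of the Chil4 probe used, which reached 13.38 in +/+ MPP. Whether the used probe read Chil4 transcripts or those of Chil3 was not tested.

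**Figure D4:**
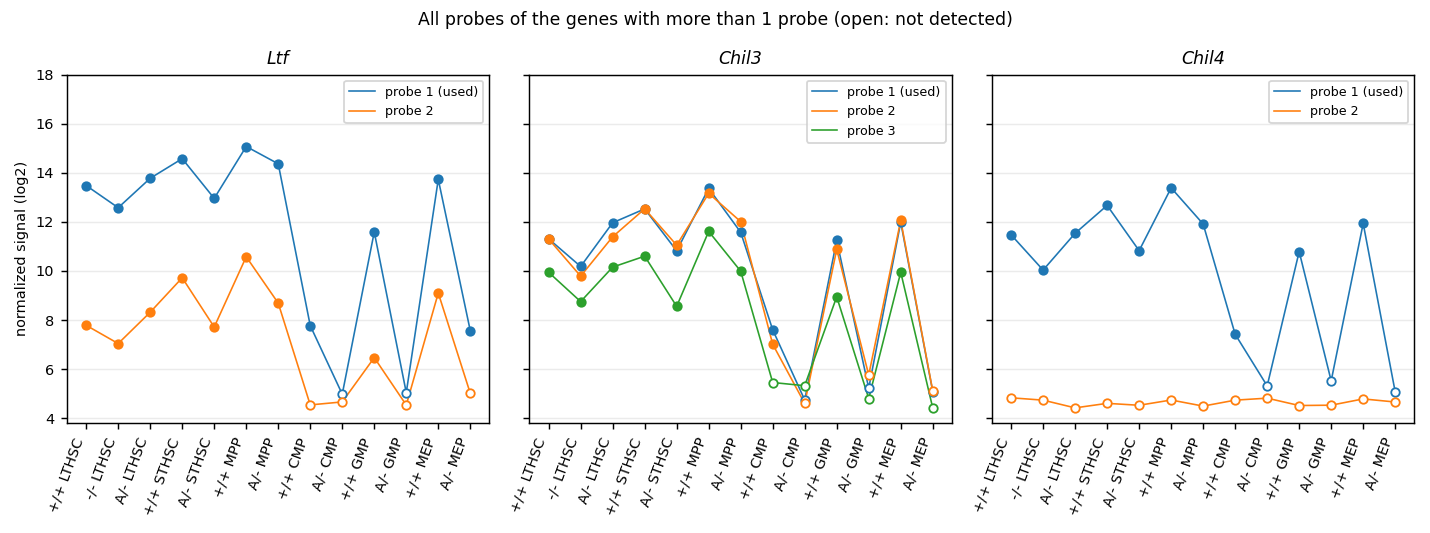
Normalized log2 signal (vertical axis) of every probe of Ltf, Chil3 and Chil4 on the 13 arrays (horizontal axis), with open points where the probe was not detected and lines joining the points of 1 probe. The probes of Ltf and of Chil3 are high and low on the same arrays, and the second Chil4 probe stays between 4.42 and 4.83.

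Genes of earlier neutrophil stages were read on the same arrays. In +/+ and A/- GMP, Mpo, myeloperoxidase, was at 15.09 and 15.18, and Elane, neutrophil elastase, was at 15.54 and 15.21. The proteases Prtn3 (proteinase 3) and Ctsg (cathepsin G) had 15.33 and 15.48 in +/+ and 15.33 and 15.25 in A/- GMP. These probes lay at 72.1% to 96.2% of the brightest probe there, so they too were near the top of the range. Over the 17 tested genes of the primary granule and promyelocyte list the GMP median was -0.64, with 6 of 17 lower by 2-fold or more in normalized signal. It was -4.89 with 9 of 10 for the 10 genes, and -0.80 with 14 of 29 for the other late granule and maturation genes listed. By the same rule, 4.11% of all features were lower in GMP. The difference between these lists was not tested. In MEP the primary granule genes were low in A/- cells as well. The +/+ MEP signals of Mpo, Elane, Prtn3 and Ctsg were 14.86, 12.97, 13.09 and 12.93, and the A/- MEP signals 10.95, 8.29, 8.59 and 7.94. The list median there was -3.78 with 14 of 17 lower by 2-fold or more in normalized signal, against 4.35% of all features. With undetected arrays at their bound, 12 of the 17 were still that much lower. In committed progenitors as a whole, 2 of the 17 passed the test, both lower, against 0.336% of all features called lower. These were Fcnb, ficolin B (-3.41, SE 0.42, limma adjusted p 0.0375) and Gstm1, a glutathione transferase (-1.66, SE 0.27, adjusted p 0.0453). Over the 5 pairs outside LTHSC, 5 of the 17 passed (limma), all lower, against 2.48% of all features called lower. Lower by 2-fold or more in normalized signal were 8 of 17 in STHSC (3.05% of all features) and 6 in MPP (4.92%).

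Other genes of late granules and neutrophil maturation were listed beside the 10, and 29 of the 33 with a probe could be tested. In committed progenitors 1 of 29 passed, Pygl, liver glycogen phosphorylase, which was lower in A/- cells, against 0.336% of all features called lower. The list median was -1.0, with no gene called higher. Single genes reached larger differences without passing, such as Cd177, a neutrophil surface antigen (-3.17, SE 0.73, limma adjusted p 0.0963), and Lrg1, a secreted glycoprotein of neutrophil granules (-3.08, SE 0.67, adjusted p 0.0889). By pair the list median was 0.19, -1.19 and -1.30 in LTHSC, STHSC and MPP, and -0.31, -0.80 and -2.52 in CMP, GMP and MEP. Lower by 2-fold or more in normalized signal were 17 of 29 in STHSC (3.05% of all features) and 22 in MPP (4.92%). Over the 5 pairs outside LTHSC, 6 of 29 passed (limma), all lower, against 2.48% of all features called lower. Mean signals of the 29 genes ran from 7.76 to 10.08 over the 6 +/+ arrays and from 5.72 to 9.15 over the 6 A/- arrays. Prok2, Cybb, Stfa3 and Ceacam10 of this list were detected on 0 arrays.

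**Figure D5:**
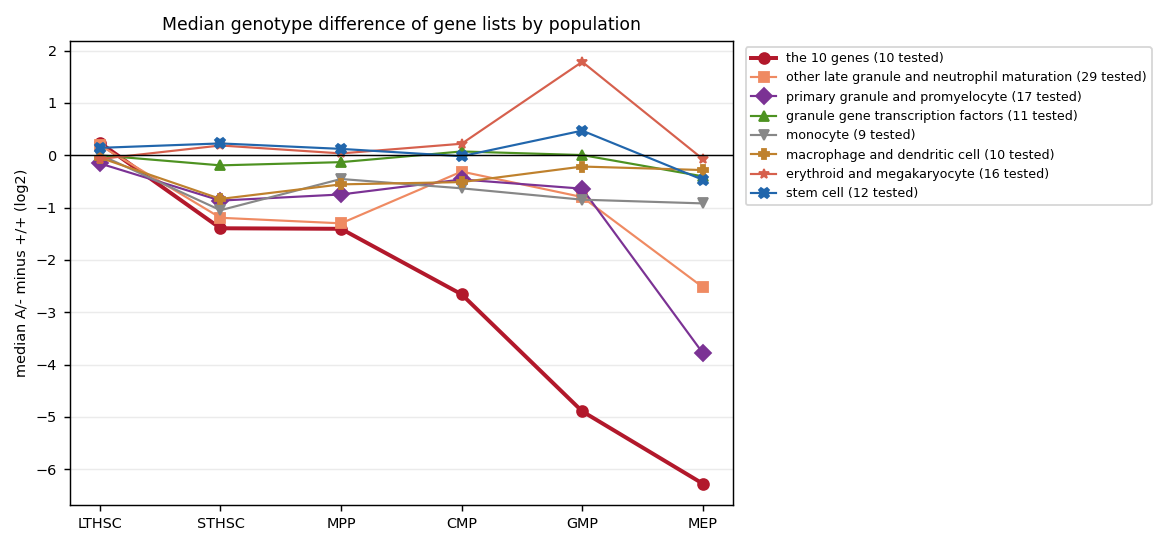
Median log2 difference between the A/- and +/+ arrays (vertical axis) over the tested genes of 8 lists in each of the 6 populations (horizontal axis), 1 line per list. The 10 genes reach -4.89 in GMP and -6.27 in MEP, while the primary granule list lies at -0.64 in GMP and -3.78 in MEP, and the erythroid and megakaryocyte list at 1.78 in GMP.

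Among 11 regulators of granule genes none passed in committed progenitors (limma), where 0.476% of all features were called in either direction. Their medians lay between -0.19 and 0.07 in the pairs other than MEP. Cebpe, which encodes C/EBPε, was at 11.80 in +/+ and 11.46 in A/- GMP, and at 10.21 and 10.53 in CMP. In STHSC it was at 10.51 in +/+ and 8.66 in A/- cells, and in MPP at 11.59 and 10.09, while in LTHSC it was at 10.14 and 9.43. In MEP it was at 9.45 in +/+ cells and 4.71, not detected, in A/- cells, and Gfi1 was at 9.05 and 5.15. Gfi1 was also lower in A/- STHSC, at 9.51 in +/+ and 8.0 in A/- cells. Spi1, which encodes PU.1, was at 8.99 and 8.98 in GMP. Over the 5 pairs outside LTHSC, Cebpb fell by 0.50 (SE 0.11, limma adjusted p 0.0432), the only regulator of the 11 that passed there. Of all features, 2.48% were called lower in that fit. Receptors and partners of the encoded proteins (7 of 11 tested) had no call in committed progenitors. Among them Csf3r, the G-CSF receptor that drives granulopoiesis, was at 10.86 in +/+ and 10.15 in A/- GMP, and Tlr4, a receptor for calprotectin, at 8.18 and 7.14. The other S100 genes (8 of 11 tested) had no call either, and S100a6 was at 9.64 in +/+ and 5.53 in A/- MEP.

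Markers of other cell types were set beside these results. In the GMP pair, A/- cells exceeded +/+ cells by 2-fold or more in normalized signal for 14 of the 16 erythroid and megakaryocyte genes (4.04% of all features), 13 of them with undetected arrays at their bound, with a median difference of 1.78. Examples were Klf1, an erythroid transcription factor, at 9.38 and 11.65, and Vwf, von Willebrand factor, at 8.68 and 11.71. In MEP, where the granule genes differed most, this list had a median of -0.07, while Fcgr3 was at 8.60 in +/+ and 4.43, not detected, in A/- MEP. Ly6c1, a monocyte marker that granulocytes share, was at 11.73 and 6.33 in the same pair. In that pair 3 of 9 monocyte genes were at least 2-fold lower, against 4.35% of all features. These 3 were the only ones of the 9 detected in +/+ MEP, and 0 of the 9 were detected in A/- MEP. Over the 6 +/+ arrays and the 6 A/- arrays, mean signals of the erythroid and megakaryocyte list ran from 8.55 to 11.35 and from 8.68 to 11.16, and those of the monocyte list from 6.68 to 10.57 and from 5.29 to 9.68. Those of the macrophage and dendritic cell list ran from 6.07 to 8.50 and from 5.43 to 7.84, with Mertk, Siglec1, Cd5l, Itgax and Flt3 detected on 0 arrays. Those of the lymphoid list ran from 6.29 to 8.54 and from 5.31 to 8.16, with Ms4a1, Pax5, Cd4 and Cd8a detected on 0 arrays. The part of cells of other stages within a gate in these differences was not tested. Without the MEP pair, the A/- difference in committed progenitors was -4.04 for S100a8 and -3.97 for S100a9 (SE 0.11 and 0.28, limma adjusted p 1.65e-06 and 0.00196).

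The members moved together across the arrays. Each gene's correlation with the mean of the other 9 was between 0.926 and 0.995 over the 13 arrays, except for Mmp8 at 0.641, and these points share populations and genotypes. Among 10024 other genes with a symbol, those most like the mean of the 10 genes were Cd177 (Pearson 0.982), Lrg1 (0.977), Fpr2 (0.971), Ifitm6 (0.952), Chil1 (0.945), Wfdc21 (0.942), Mmp9 (0.937), 6430548M08Rik (0.933), Tnfsf13b (0.927) and Lilr4b (0.924). Of these 10 genes, 8 were also among the 10 most alike over the 10 arrays outside LTHSC. Fpr2 encodes a formyl peptide receptor and Mmp9 gelatinase B of tertiary granules. Mmp9 had +/+ signals of 11.97 in MPP, 10.50 in MEP and 6.30 in GMP, so that like Retnlg it was far higher in +/+ MEP than in +/+ GMP.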

How the data were processed

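RNA of the 13 samples was amplified to biotinylated cRNA and hybridised to Illumina mouse bead arrays, per the labels' protocols. The unnormalized table deposited by the authors gives each probe a linear intensity and a detection p-value on every array, per the file headers. Not given in the sources used here are the scanner software and any background step. Processed intensities of the same arrays, also deposited, served as an alternative. The 45281 probes (326 empty lines left out) were processed in R 4.3.3 with limma 3.58.1. Background was taken from the detection p-values, an offset of 16 was added, and the arrays were quantile normalized and put on the log2 scale. Equal distributions make all changes relative, and the offset shrinks those of dim probes.

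Genes were named from the platform annotation (34885 probes with 1 symbol, 18 with several, 10378 not listed). The probe with the highest mean stood for each gene, which left 29453 features. The 12807 detected (p under 0.01) on at least 2 arrays were fitted with lmFit and moderated by eBayes (trended variance), then adjusted by Benjamini-Hochberg over all of them and called under 0.05. Population was a fixed block, and the -/- array entered no fit. Pairs of single arrays were not tested, only counted where 2-fold or more apart in normalized signal with the brighter array detected, and again with undetected dimmer arrays at their bound. Replicate numbers pair nothing here, since each group holds 1 array and pairs are formed by the population label.

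The members and gene lists were chosen with earlier results of these data known. All 10 members and all their probes are named, together with list members, Cbl, sort markers and the 10 genes most correlated with the members' mean. Alternatives were other background, scaling, offset, filter, probe, trend and block settings, the authors' values, and leaving out population pairs.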

Additional observations from a re-analysis of the deposited data

Results flagged for a closer look

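The genotype difference of S100a8 differed between the committed and the LSK populations by -4.53 on the log2 scale (limma adjusted p 0.0119). Among the 12807 tested features it was the single one for which this contrast passed. It did not pass without the STHSC pair (adjusted p 0.142), without the MPP pair (0.226), without the mean-variance trend (0.159) or without the population block (0.99997, limma in each), and the lowest adjusted p over its alternatives was 1.4e-05, without the MEP pair. Its LSK side, a difference of 0.00, was read at 75.01% to 87.7% of the brightest probe of each array. For 8 genes the LTHSC pair went opposite to the other 5 pairs, being higher in A/- cells where all the others were lower. The LTHSC difference was 0.18 for S100a9, 0.30 for Ltf, 0.060 for Camp, 0.38 for Ngp, 0.79 for Lcn2, 0.66 for Chil3, 0.061 for Chil4 and 0.16 for Retnlg. This second difference was not tested, as each population had 1 array per genotype, and the LTHSC arrays were also those with their own raw scale. The genes correlate across arrays, so the 8 are not independent observations. The 2 Chil3 probes not used lay closer together in that pair, at 11.30 and 9.94 in +/+ and 11.39 and 10.16 in A/- LTHSC. The share of all features with an opposite LTHSC pair was not counted.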

How the results depend on the processing

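In committed progenitors, the 7 called genes kept their direction under all alternatives tried. Their number was 3 without background correction, 4 with the authors' processed values, 1 without a mean-variance trend (S100a8 being called under each of these) and 4 with the committed pairs alone. It was 1 to 8 when single pairs were left out. Without the population block, which pairs the arrays, 0 genes were called in committed progenitors, 0 in the contrast with LSK and 0 outside LTHSC. In the contrast of committed and LSK cells, where 1 gene was called, the number was 2 without a detection filter, 0 without the trend, 2 without the LTHSC and MEP pairs and 0 to 5 without single pairs. Outside LTHSC, where 3 were called, it was 7 without background correction, 7 with 75th percentile scaling, 7 with the authors' values, 8 without the filter, 6 with every probe tested, 0 without the trend and 0 to 4 without single pairs. Over all pairs, with 0 called, it was 4 without the LTHSC and MEP pairs and 0 to 3 without single pairs. Without the LTHSC and MEP pairs it was 1 in LSK and 1 for GMP against CMP. The number of all features called shifted too, from 0 to 317 in committed progenitors, 56 to 745 outside LTHSC and 2 to 498 over all pairs. These ranges are not matched to single settings here. The cause of these shifts was not tested.

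Of 1273 values of single genes under alternatives, 14 changed sign. For Mmp8 the committed difference became 0.082 with 75th percentile scaling, and the level difference 0.29 with the authors' values. Its LSK difference ranged from -1.08 to 0.27 when single pairs were left out. Its committed-minus-LSK contrast became 0.68 with 75th percentile scaling, 0.42 with cyclic loess, 0.082 with 2 array sets, 0.024 with an offset of 50 and 0.97 without LTHSC and MEP, and it ranged from -0.69 to 0.66 without single pairs. The S100a8 LSK difference became -0.010 without LTHSC and MEP and ranged from -0.053 to 0.074 without single pairs, and the Retnlg contrast became 0.035 without LTHSC and MEP. The count of all features called was 61 in committed progenitors (0 to 317 under alternatives), 76 over all pairs (2 to 498), 473 outside LTHSC (56 to 745), 0 in LSK (0 to 264), 1 in the contrast (0 to 7), 5877 for the level (2089 to 11472) and 0 for GMP against CMP (0 to 109).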
